A study of Bos taurus with 2 samples.

Results

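The integrated stress response genes described here are ATF3, ATF4, DDIT3, TRIB3, ASNS, CHAC1, SESN2, PSAT1, PHGDH and SLC7A11. They were set as a list of symbols, with earlier results of these data known, and each of the 10 matched 1 of the 35643 features in both libraries (in that order ENSBTAG00000008545, ENSBTAG00000017462, ENSBTAG00000031544, ENSBTAG00000017007, ENSBTAG00000003222, ENSBTAG00000010371, ENSBTAG00000002363, ENSBTAG00000013960, ENSBTAG00000039719 and ENSBTAG00000034075). Single nuclei were profiled by 10x Genomics droplet RNA sequencing in 1 library of bovine (Bos taurus) blastoids and 1 library of day-8 bovine blastocysts. Blastoids are embryo models grown from stem cell lines. Here 8 bEPSC, 8 bXEN and 16 bTSC cells were seeded in each microwell, after depletion of iMEF feeder cells, in ACL medium with N2 and B27 supplements, NEAA, GlutaMAX, 2-mercaptoethanol, ITS-X, LIF, ActivinA and Chir99021. The medium also held the CEPT cocktail of chroman-1, emricasan, trans-ISRIB and a polyamine supplement. Both sources were labelled WT and were frozen before nuclei were isolated. The number of blastoids and of embryos pooled is not given in the labels, nor is how the blastocysts were produced. With 1 library in each group there was no replicate check, so every difference below compares 2 libraries or groups of nuclei within them, and every 95% interval covers counting error only. Nuclei of 1 library are not replicates.

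The integrated stress response is a shared arm of several stress pathways. Kinases that sense unfolded protein, amino acid shortage, double-stranded RNA or mitochondrial and heme stress phosphorylate the translation factor eIF2, which slows its recharging by eIF2B and lowers translation in general while favouring translation of the ATF4 messenger. ATF4 protein then raises transcription of genes for amino acid synthesis and uptake, of the transcription factors ATF3 and DDIT3 (CHOP), and of feedback genes such as TRIB3. Since ATF4 is controlled largely in translation, its RNA level is not a measure of its activity. trans-ISRIB acts on eIF2B and counteracts the response below eIF2 phosphorylation. It was listed for the blastoid medium, and medium and source of the nuclei cannot be told apart in this design.

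After filtering, 1914 blastoid barcodes with 7481886 UMIs (unique molecules counted) and 827 blastocyst barcodes with 6861558 UMIs were kept. The libraries shared 1 barcode sequence. Depth differed: 1628 of the blastoid and 139 of the blastocyst barcodes held under 4000 UMIs. Ribosomal protein genes made up 8.09% of the kept blastoid UMIs and 0.993% of the kept blastocyst UMIs. Each library was clustered without the stress response genes, and levels are given as CPM, a gene's UMIs scaled by all UMIs of the summed barcodes to the same total.

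The blastoid library fell into 3 clusters. A ribosomal-rich cluster held 1619 barcodes at a median of 1922 UMIs, with 15.7% ribosomal protein UMIs and markers of several lineages (8 trophectoderm and 9 hypoblast markers above the other clusters). Its summed trophectoderm markers, at 12461 CPM, were the highest of the 3 blastoid clusters. A trophectoderm-like cluster held 154 nuclei at a median of 14620 UMIs and was marked by 6 trophectoderm genes, among them GATA2 and GATA3. It also had 3 hypoblast markers (GATA6, LAMA1 and LRP2) and 2 epiblast markers, so its name just reaches the naming rule. Every trophectoderm-like comparison between the libraries below rests on that name. Summed hypoblast markers were above summed trophectoderm markers both in this cluster (4684 against 3823 CPM) and in the deep trophectoderm-like cluster of the blastocysts (4664 against 3183 CPM). The last cluster, of 141 nuclei at a median of 10924 UMIs, had no trophectoderm marker above the other clusters and was led by LMX1A, LDB2, NLGN1 and DCC. It stayed without a name and is called the DCC cluster, after a guidance receptor of neurons that reached 2541 CPM there. No blastoid cluster could be named epiblast-like or hypoblast-like, although bEPSC and bXEN lines had been seeded. NANOG stood at 0.413 to 3.16 CPM and PDGFRA at 0.827 to 12.6 CPM in the 3 blastoid clusters.

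The blastocyst library fell into 4 clusters. A hypoblast-like cluster of 377 nuclei was marked by 11 hypoblast genes, PDGFRA and GATA6 among them, and also by 4 epiblast genes including SOX2. A deep trophectoderm-like cluster held 235 nuclei at a median of 8760 UMIs. A shallow trophectoderm-like cluster held 143 barcodes at a median of 2401 UMIs, with 3.33% ribosomal protein UMIs. Its name rests on 4 markers (KRT8, KRT18, KRT19 and PTGS2) against 2 hypoblast and 2 epiblast markers, which also just reaches the naming rule, so comparisons of the 10 genes are also given without it. The remaining 72 nuclei, led by HMGA2, had 4 epiblast and 3 hypoblast markers and stayed without a name. NANOG was 115 CPM in that HMGA2 cluster. Fibroblast markers, looked at because feeder cells had been depleted, summed to 24.8 to 65.4 CPM in the blastoid clusters and 36.9 to 72.6 CPM in the blastocyst clusters.

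Across the whole libraries, 4 of the 10 genes were at least 2-fold lower in the blastoids: ATF3, TRIB3, ASNS and SESN2. Of all 19221 features tested, 20.7% were at least 2-fold lower, a smaller share than the 4 of 10. None of the 10 was 2-fold higher, against 24.2% of all features. The median log2 ratio of the 10 genes was -0.80, with medians of the lower and upper interval bounds of -1.25 and -0.39. The median over all features was -0.08, and -0.25 over the 7828 features with at least 100 UMIs in both libraries. Relative to that -0.25, SESN2 fell short of 2-fold (log2 -0.81), the list median was -0.56, and SLC7A11 turned from -0.07 to 0.18.

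**Figure D1:**
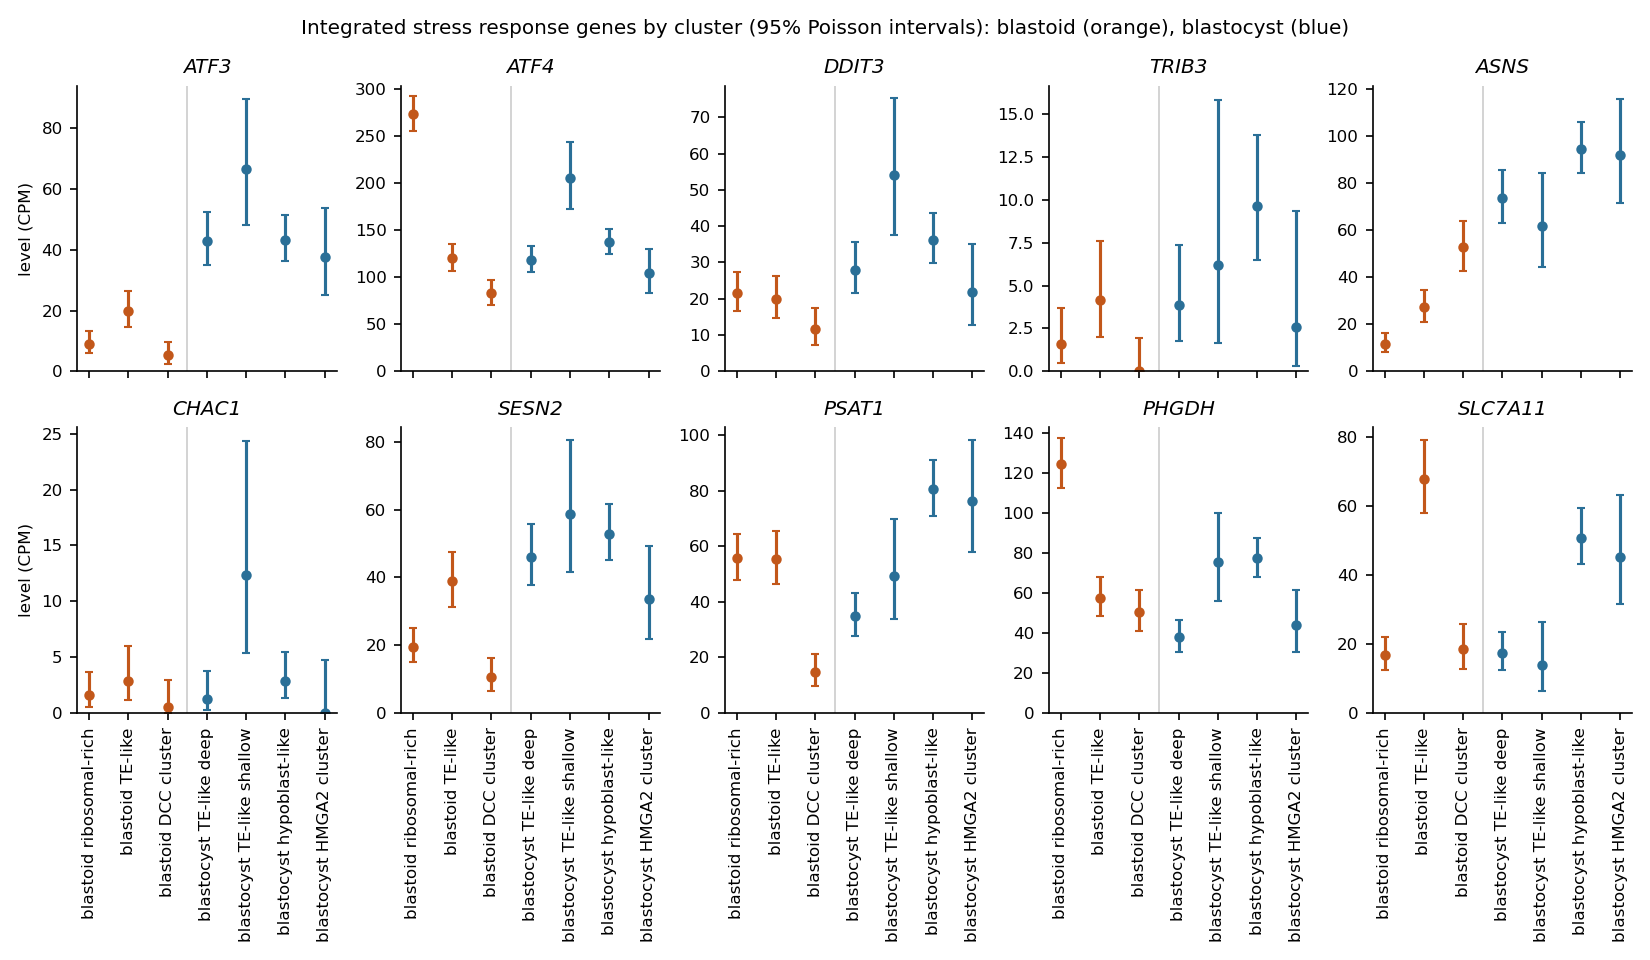
Level in CPM (vertical axis, linear from 0, a separate scale for each gene) of the 10 genes in the 3 blastoid clusters (orange) and 4 blastocyst clusters (blue). TE stands for trophectoderm, points are the level of the summed UMIs of a cluster and bars are exact Poisson 95% intervals. The orange points of ATF3, DDIT3 and ASNS all lie below the blue ones.

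Among the transcription factors, ATF3 differed most between the libraries. ATF3, a factor of the ATF/CREB family that many stresses induce, was 11.6 CPM in the blastoids (87 UMIs, 95% interval 9.31 to 14.3) and 44.7 CPM in the blastocysts (307 UMIs, 39.9 to 50.0). That made ATF3 3.85-fold lower in the blastoids (interval 3.02 to 4.94). By cluster ATF3 was 9.17 CPM in the ribosomal-rich, 19.8 CPM in the trophectoderm-like and 5.26 CPM in the DCC cluster of the blastoids. In the blastocysts ATF3 was 43.0 CPM in the deep and 66.4 CPM in the shallow trophectoderm-like cluster, 43.3 CPM in the hypoblast-like and 37.5 CPM in the HMGA2 cluster. All 3 blastoid clusters were therefore below all 4 blastocyst clusters, and the highest blastoid interval (14.6 to 26.3) overlapped only that of the HMGA2 cluster (25.1 to 53.9).

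ATF4, the effector that gives the response its transcription program, went the other way in the whole libraries but not among deep nuclei. ATF4 was 175 CPM in the blastoids (1313 UMIs, 166 to 185) and 134 CPM in the blastocysts (919 UMIs, 125 to 143), a ratio of 1.31 (1.20 to 1.43). Among barcodes with at least 4000 UMIs ATF4 was 103 CPM in the blastoids and 127 CPM in the blastocysts, which is 1.23-fold lower in the blastoids (1.10 to 1.39). The direction for ATF4 thus turned with depth. At that depth ATF3, TRIB3 and ASNS were still at least 2-fold lower, 3 of 10 genes against 15.2% of features, and 0 were 2-fold higher, against 21.9%. SESN2 was then 1.86-fold lower (1.499 to 2.33). The order of the clusters for ATF4 was 273 CPM in the ribosomal-rich blastoid cluster, 205 CPM in the shallow blastocyst cluster, 138 CPM in the hypoblast-like, 120 CPM in the blastoid trophectoderm-like, 119 CPM in the deep blastocyst trophectoderm-like, 105 CPM in the HMGA2 and 83.2 CPM in the DCC cluster. The 2 highest were the 2 clusters with the shallowest barcodes and most ribosomal protein UMIs, and the intervals of neighbours from the hypoblast-like cluster downward overlapped. The part of depth and of ribosomal-rich barcodes in the ATF4 level was not tested.

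DDIT3, which encodes the CHOP factor linked to cell death in prolonged endoplasmic reticulum stress, was 18.4 CPM in the blastoids (138 UMIs, 15.5 to 21.8) and 33.5 CPM in the blastocysts (230 UMIs, 29.3 to 38.1). The difference was 1.82-fold (1.47 to 2.26), under the 2-fold limit. DDIT3 stood at 21.5, 19.8 and 11.6 CPM in the ribosomal-rich, trophectoderm-like and DCC clusters, and at 28.0, 54.1, 36.3 and 22.0 CPM in the deep trophectoderm-like, shallow trophectoderm-like, hypoblast-like and HMGA2 clusters. Its blastoid clusters again lay below its blastocyst clusters, but the gap between 21.5 and 22.0 CPM was smaller than the counting error. Of the 10 genes, ATF3, DDIT3 and ASNS had every blastoid cluster below every blastocyst cluster, against 10.4% of all features. None had every blastoid cluster above, against 8.15%.

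TRIB3, a pseudokinase that DDIT3 and ATF4 induce and that dampens the response, was rare. The blastoids held 15 TRIB3 UMIs (2.00 CPM, 1.12 to 3.31) and the blastocysts 45 (6.56 CPM, 4.78 to 8.78), a 3.27-fold lower level in the blastoids (1.79 to 6.32). TRIB3 was counted 5, 10 and 0 times in the ribosomal-rich, trophectoderm-like and DCC clusters, and 30 of the 45 blastocyst UMIs were in the hypoblast-like cluster. TRIB3 was 9.63 CPM in that cluster, 6.18 CPM (4 UMIs) in the shallow trophectoderm-like cluster and 4.13 CPM in the blastoid trophectoderm-like nuclei.

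The amino acid synthesis genes did not move as a group. ASNS, the enzyme that makes asparagine, was 27.1 CPM in the blastoids (203 UMIs, 23.5 to 31.1) and 84.1 CPM in the blastocysts (577 UMIs, 77.4 to 91.2), 3.10-fold lower in the blastoids (2.64 to 3.66). ASNS was 11.7 CPM in the ribosomal-rich, 27.3 CPM in the trophectoderm-like and 52.6 CPM in the DCC cluster, against 73.6 CPM in the deep trophectoderm-like, 61.8 CPM in the shallow trophectoderm-like, 94.7 CPM in the hypoblast-like and 91.8 CPM in the HMGA2 cluster. The 3 blastoid clusters differed among themselves beyond counting error, and only the DCC cluster came near the blastocyst range, where its interval (42.8 to 64.0) overlapped those of both trophectoderm-like clusters.

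PHGDH and PSAT1 catalyse the first and second steps of serine synthesis. PHGDH was 84.1 CPM in the blastoids (629 UMIs, 77.6 to 90.9) and 60.0 CPM in the blastocysts (412 UMIs, 54.4 to 66.1), a ratio of 1.40 (1.23 to 1.59). Among barcodes with at least 4000 UMIs PHGDH was 53.9 and 58.1 CPM, a ratio of 0.929 whose interval (0.786 to 1.10) includes 1. As with ATF4, the higher PHGDH level of the whole blastoid library was therefore found with the shallow barcodes included. PHGDH reached 125 CPM in the ribosomal-rich cluster, 57.5 and 50.5 CPM in the trophectoderm-like and DCC clusters, 37.9 CPM in the deep and 75.7 CPM in the shallow blastocyst trophectoderm-like cluster, 77.3 CPM in the hypoblast-like and 44.0 CPM in the HMGA2 cluster.

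PSAT1 was 45.2 CPM in the blastoids (338 UMIs, 40.5 to 50.3) and 61.6 CPM in the blastocysts (423 UMIs, 55.9 to 67.8), 1.36-fold lower (1.18 to 1.58). The 2 highest PSAT1 clusters were both from the blastocyst, the hypoblast-like at 80.5 CPM and the HMGA2 cluster at 76.3 CPM. The ribosomal-rich and trophectoderm-like blastoid clusters had nearly equal PSAT1 levels of 55.6 and 55.4 CPM. The shallow and deep blastocyst trophectoderm-like clusters stood at 49.4 and 34.9 CPM, and the DCC cluster was lowest for PSAT1 at 14.7 CPM.

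Of the genes of cystine uptake and glutathione turnover, SLC7A11 differed between clusters and CHAC1 was rare. SLC7A11 encodes the light chain of the cystine and glutamate exchanger, which supplies cysteine for glutathione. Its whole-library levels of 33.7 CPM in the blastoids (252 UMIs, 29.7 to 38.1) and 35.3 CPM in the blastocysts (242 UMIs, 31.0 to 40.0) did not differ beyond counting error. Beneath that equal total, SLC7A11 was 67.8 CPM in the blastoid trophectoderm-like nuclei and only 16.8 and 18.4 CPM in the ribosomal-rich and DCC clusters. In the blastocyst it was 50.7 CPM in the hypoblast-like and 45.3 CPM in the HMGA2 cluster, and 17.2 and 13.9 CPM in the deep and shallow trophectoderm-like clusters. The clusters rich in SLC7A11 were thus the trophectoderm-like one in the blastoid library and those outside the trophectoderm-like class in the blastocyst library.

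CHAC1, which breaks down glutathione, was counted 13 times in the blastoids and 20 times in the blastocysts, a ratio of 0.596 with an interval of 0.272 to 1.26. A 2-fold difference in CHAC1 was not detectable at this depth. SESN2, a leucine-binding sestrin that restrains mTORC1 and that ATF4 and p53 induce, was 23.5 CPM in the blastoids (176 UMIs, 20.2 to 27.3) and 49.0 CPM in the blastocysts (336 UMIs, 43.9 to 54.5), 2.08-fold lower (1.73 to 2.51). SESN2 was 19.6, 38.9 and 10.5 CPM in the ribosomal-rich, trophectoderm-like and DCC clusters. It ranged from 33.6 CPM in the HMGA2 cluster to 58.7 CPM in the shallow trophectoderm-like cluster of the blastocysts, so the blastoid trophectoderm-like nuclei lay within the blastocyst range.

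**Figure D2:**
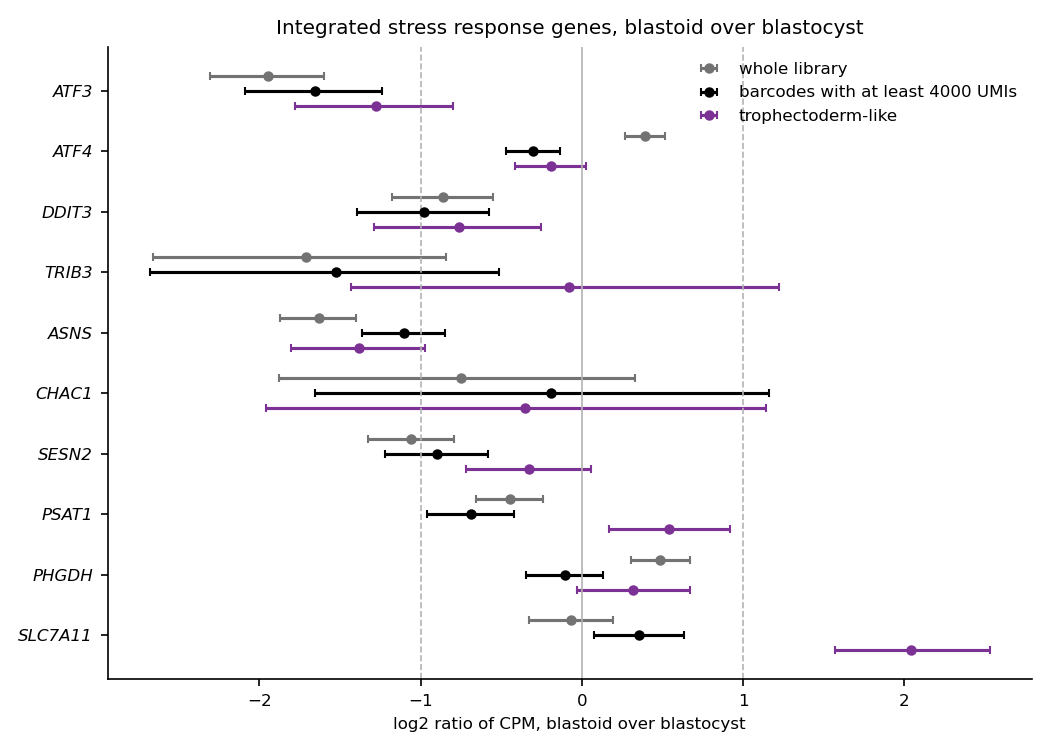
Log2 ratio of CPM, blastoid over blastocyst (horizontal axis), for the 10 genes in the whole libraries (grey), in barcodes with at least 4000 UMIs (black) and in trophectoderm-like nuclei (purple). Bars are exact conditional 95% intervals and dashed lines mark 2-fold. ATF3 and ASNS lie left of -1 in all 3 comparisons, and SLC7A11 lies right of 1 in trophectoderm-like nuclei only.

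Trophectoderm-like nuclei were set side by side: 154 nuclei from the blastoids and 378 barcodes of the 2 trophectoderm-like clusters from the blastocysts. The markers behind the name differ in part. KRT8, KRT18, KRT19 and PTGS2, which name the shallow blastocyst cluster, marked the ribosomal-rich blastoid cluster and not the blastoid trophectoderm-like one. The deep blastocyst cluster shared GATA2, GATA3, TFAP2C and HSD3B1 with the latter. SLC7A11 was 4.11-fold higher in the blastoid nuclei (164 against 49 UMIs, 67.8 against 16.5 CPM, interval 2.97 to 5.78). In the ribosomal-rich blastoid cluster SLC7A11 was 16.8 CPM. ASNS was 2.60-fold lower (66 against 211 UMIs, 27.3 against 71.0 CPM, interval 1.97 to 3.49) and ATF3 2.43-fold lower (48 against 143 UMIs, 19.8 against 48.1 CPM, interval 1.74 to 3.44). Thus 1 of 10 genes was at least 2-fold higher, against 17.3% of 15572 features, and 2 of 10 were at least 2-fold lower, against 16.0%. These shares are near the background, so the count by itself does not set the list apart.

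The other 7 genes lay within 2-fold in these nuclei. PSAT1 was 55.4 against 38.0 CPM, a ratio of 1.46 (1.13 to 1.89), and DDIT3 was 19.8 against 33.7 CPM, 1.70-fold lower (1.19 to 2.45). The intervals of ATF4 (120 against 138 CPM), PHGDH (57.5 against 46.1 CPM), SESN2 (38.9 against 48.8 CPM), TRIB3 (10 against 13 UMIs) and CHAC1 (7 against 11 UMIs) included a ratio of 1. SESN2 and TRIB3, which were over 2-fold lower in the whole blastoid library, had trophectoderm-like ratios of 0.796 (0.608 to 1.04) and 0.945 (0.371 to 2.33). DDIT3 passed 2-fold after thinning each nucleus to 2000 UMIs, at a log2 ratio of -1.70, but few counts remain at that depth. In the thinned detection shares DDIT3 was found in 5 of 150 blastoid nuclei (3.33%, 1.09 to 7.61). It was found in 21 of 311 blastocyst barcodes (6.75%, 4.23 to 10.1), and these intervals overlap. The median log2 ratio of the 10 genes was -0.26, beside -0.01 over all features, and it turned to 0.06 without the shallow blastocyst cluster.

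Setting the blastoid trophectoderm-like cluster against the deep blastocyst one alone kept these 3 genes past 2-fold. SLC7A11 was 3.94-fold higher (2.77 to 5.71), ASNS 2.70-fold lower (2.02 to 3.64) and ATF3 2.17-fold lower (1.52 to 3.13). CHAC1, at 7 against 3 UMIs (ratio 2.24, 0.512 to 13.4), also passed 2-fold, so 2 of 10 genes were higher, against 20.4% of features, and 2 lower, against 14.3%. ATF4 was then 120 against 119 CPM, a ratio of 1.01 (0.856 to 1.20), and PHGDH was 1.52-fold higher (1.15 to 2.01). One blastocyst nucleus held 14 of the 100 ATF3 UMIs of that cluster. Without the nucleus richest in ATF3 on each side, ATF3 was 2.03-fold lower (1.40 to 2.99), and at a cluster resolution of 1.0 its log2 ratio was -0.77, within 2-fold.

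Detection in single nuclei was compared after thinning each barcode to 2000 UMIs, which left out 4 blastoid trophectoderm-like and 3 deep blastocyst trophectoderm-like nuclei. SLC7A11 was detected in 12.7% of the blastoid trophectoderm-like nuclei (95% exact binomial interval 7.80 to 19.1) and in 3.45% of the deep blastocyst ones (upper bound 6.68). These intervals do not overlap. The unthinned shares were 42.9% and 10.2%, at median depths of 14620 and 8760 UMIs. For ASNS the thinned shares were 8.67% (4.70 to 14.4) and 12.9% (8.90 to 17.9), and for ATF3 7.33% (3.72 to 12.7) and 6.90% (3.99 to 10.96). The ASNS and ATF3 shares thus overlapped although their CPM levels differed, and no order was read from them. No cluster here is known to lack these genes, so the part of free RNA in the shares was not tested.

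**Figure D3:**
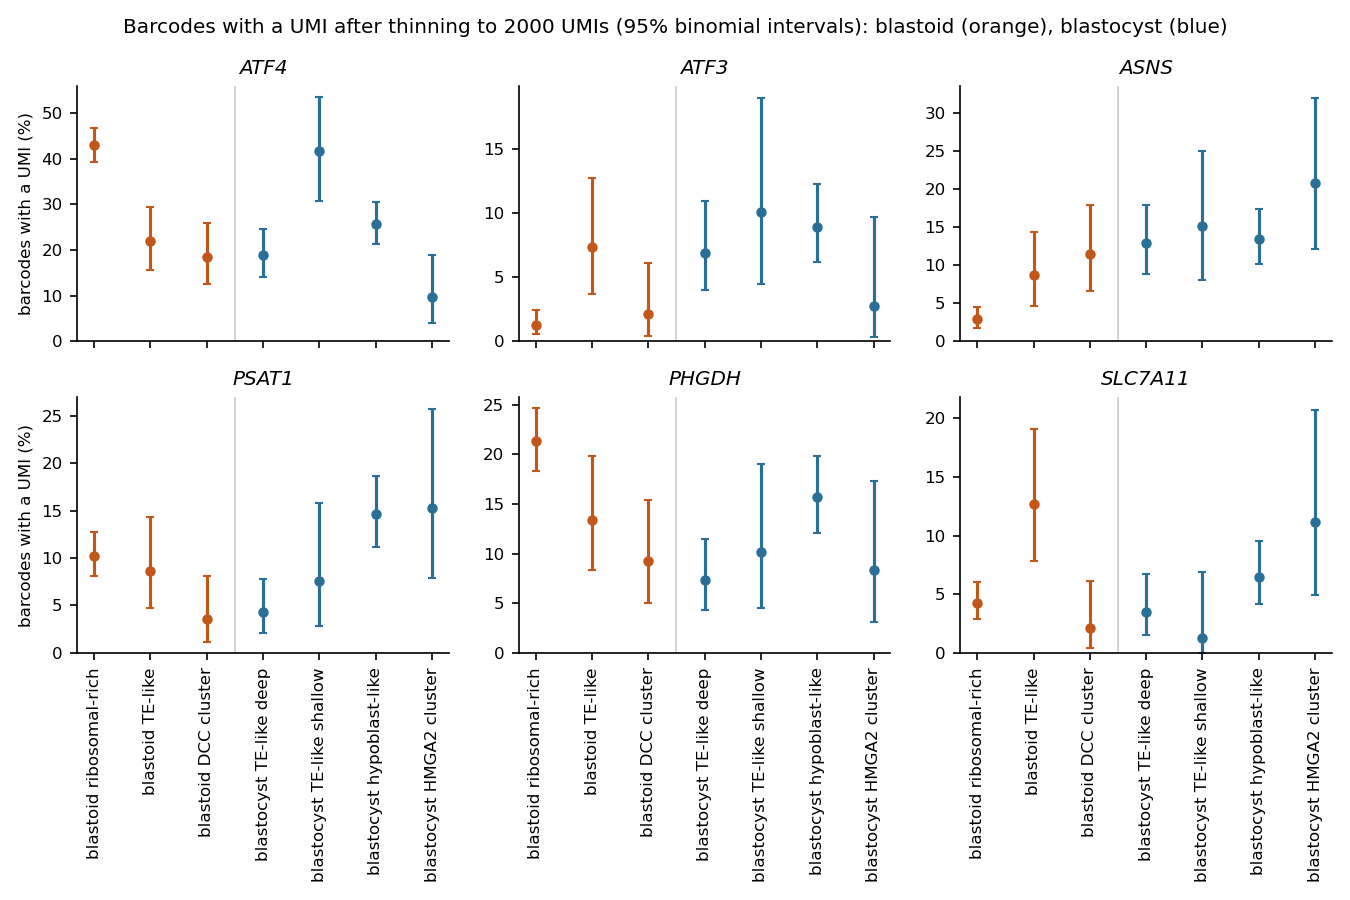
Share of barcodes with at least 1 UMI (vertical axis, percent, from 0) for 6 of the genes after thinning every barcode to 2000 UMIs, in the 3 blastoid clusters (orange) and 4 blastocyst clusters (blue). Bars are exact binomial 95% intervals and TE stands for trophectoderm. ATF4 was found in 42.9% of the ribosomal-rich barcodes and in 18.6% to 22.0% of the other blastoid nuclei.

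Within the blastoid library, the DCC cluster had the lowest summed level of the 10 genes, 247 CPM (226 to 271), against 414 CPM (389 to 440) in the trophectoderm-like nuclei. Relative to the latter, PSAT1 was 3.76-fold lower (2.49 to 5.87), ATF3 3.77-fold lower (1.88 to 8.36), SESN2 3.69-fold lower (2.26 to 6.32) and SLC7A11 3.68-fold lower (2.54 to 5.46). TRIB3, with 0 UMIs against 10, was at least 2.62-fold lower when the 0 is set to 3 counts, and the exact interval of the ratio reaches down to 1.76-fold. ASNS went the other way at 1.93-fold higher (1.40 to 2.67). Of the 9 genes with at least 10 UMIs, 5 were at least 2-fold lower, against 17.5% of 15411 features, and 0 were 2-fold higher, against 21.6%. Both clusters are deep, with 139 of 141 and 147 of 154 nuclei at 4000 UMIs or more. Of the 35 SLC7A11 UMIs in the DCC cluster, 13 came from 1 nucleus.

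In the ribosomal-rich blastoid cluster, ATF4 was 2.27-fold higher than in trophectoderm-like nuclei (1.99 to 2.60) and PHGDH 2.17-fold higher (1.78 to 2.65). SLC7A11 was 4.05-fold lower (2.95 to 5.63), ASNS 2.33-fold lower (1.54 to 3.59) and ATF3 2.16-fold lower (1.34 to 3.56). TRIB3 was counted 5 times against 10. In all, 2 genes were at least 2-fold higher and 4 at least 2-fold lower, against 22.5% and 38.0% of 15240 features, so the counts are near the background. The ratios of well-counted features had a median of -0.61 here, and relative to it ATF3, ASNS and TRIB3 came within 2-fold (log2 -0.50, -0.61 and -0.77) while ATF4 (1.80), PHGDH (1.73) and SLC7A11 (-1.40) did not. ATF4 alone made up 51.0% of the UMIs of the 10 genes in this cluster, against 22.9% to 34.0% in the other 6.

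Within the blastocyst library, SLC7A11 and PSAT1 were higher in both clusters outside the trophectoderm-like class, and PHGDH in the hypoblast-like one. Relative to all trophectoderm-like barcodes, the hypoblast-like nuclei had 3.07-fold more SLC7A11 (2.22 to 4.33), 2.12-fold more PSAT1 (1.69 to 2.67) and 2.20-fold more TRIB3 (1.11 to 4.595, 30 against 13 UMIs). PHGDH was 1.68-fold (1.35 to 2.08) and ASNS 1.33-fold higher (1.11 to 1.60). ATF4 (138 against 138 CPM), ATF3 (43.3 against 48.1 CPM) and DDIT3 (36.3 against 33.7 CPM) had intervals that included 1, as did SESN2 and CHAC1. In all, 3 of 10 genes were at least 2-fold higher, against 15.4% of 15711 features, and 0 were 2-fold lower, against 14.0%. Relative to the median of well-counted features (0.10), PSAT1 came just under 2-fold (0.98), which leaves 2 of 10. Against the deep trophectoderm-like cluster alone, 5 of 10 were at least 2-fold higher, against 18.6%: PHGDH at 2.04-fold (1.59 to 2.64) and CHAC1 at 9 against 3 UMIs (ratio 2.24, 0.558 to 12.8) joined the 3. Relative to the median there (also 0.10), PHGDH came under 2-fold (0.93).

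Of the genes at least 2-fold higher in the hypoblast-like nuclei, SLC7A11 and PSAT1 were also so in the HMGA2 cluster. SLC7A11 was 2.74-fold (1.73 to 4.32) and PSAT1 2.01-fold (1.44 to 2.77) above the trophectoderm-like class, which made 2 of 10 genes against 15.8% of features, and 0 were 2-fold lower, against 14.1%. Relative to the median of well-counted features (0.26), PSAT1 came under 2-fold (0.74). Against the deep trophectoderm-like cluster alone SLC7A11 was 2.63-fold (1.62 to 4.25) and PSAT1 2.19-fold higher (1.54 to 3.10), 2 of the 9 genes with at least 10 UMIs against 18.5%, with 0 lower against 14.4%. Relative to that comparison's median of well-counted features (also 0.26), PSAT1 again came under 2-fold (0.87), and SLC7A11 did not (1.14). PHGDH was 44.0 against 46.1 CPM in the whole class, and its ratio to the deep cluster was 1.16 (0.758 to 1.74). CHAC1 had 0 UMIs in this cluster. ASNS was 91.8 CPM in it and 94.7 CPM in the hypoblast-like cluster, within 2-fold of the trophectoderm-like class in both. Between the shallow and the deep trophectoderm-like cluster, CHAC1 alone passed 2-fold upward (8 against 3 UMIs, ratio 9.57, 2.30 to 56.0), 1 of 10 genes against 20.9% of features, and 0 passed downward, against 13.0%. DDIT3 (1.93, 1.24 to 2.96), PHGDH (2.00 after rounding, 1.38 to 2.87), ATF4 (1.73, 1.40 to 2.14) and ATF3 (1.54, 1.05 to 2.23) were higher in the shallow cluster but under 2-fold.

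Depth within a library went with different levels in the 2 libraries. Nearly all shallow blastoid barcodes (1619 of 1628) were in the ribosomal-rich cluster, so depth and cluster cannot be told apart there. In the blastoids, barcodes under 4000 UMIs had 273 CPM of ATF4 against 103 CPM in deeper ones (ratio 2.65, 2.36 to 2.98) and 125 against 53.9 CPM of PHGDH (2.31, 1.96 to 2.73). ASNS was 3.32-fold (2.31 to 4.88) and SLC7A11 2.78-fold lower (2.04 to 3.84) in the shallow blastoid barcodes. In the blastocysts, shallow barcodes had 296 against 127 CPM of ATF4 (2.33, 1.84 to 2.92), 98.7 against 42.4 CPM of ATF3 (2.33, 1.52 to 3.44) and 88.2 against 31.2 CPM of DDIT3 (2.83, 1.79 to 4.296). So ATF4 and PHGDH (1.82 in the blastocysts, 1.21 to 2.64) were higher in the shallow barcodes of both libraries. ATF3 was higher in those of the blastocysts, while its blastoid ratio was 0.676 (0.417 to 1.07). Of the 139 shallow blastocyst barcodes, 93 were in the shallow trophectoderm-like cluster. There ATF3 was 154 CPM and ATF4 408 CPM in the barcodes under 4000 UMIs and 40.2 and 145 CPM in those above. CHAC1 was counted 6 times in shallow and 14 times in deep blastocyst barcodes, a ratio of 9.94 (3.13 to 27.5).

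**Figure D4:**
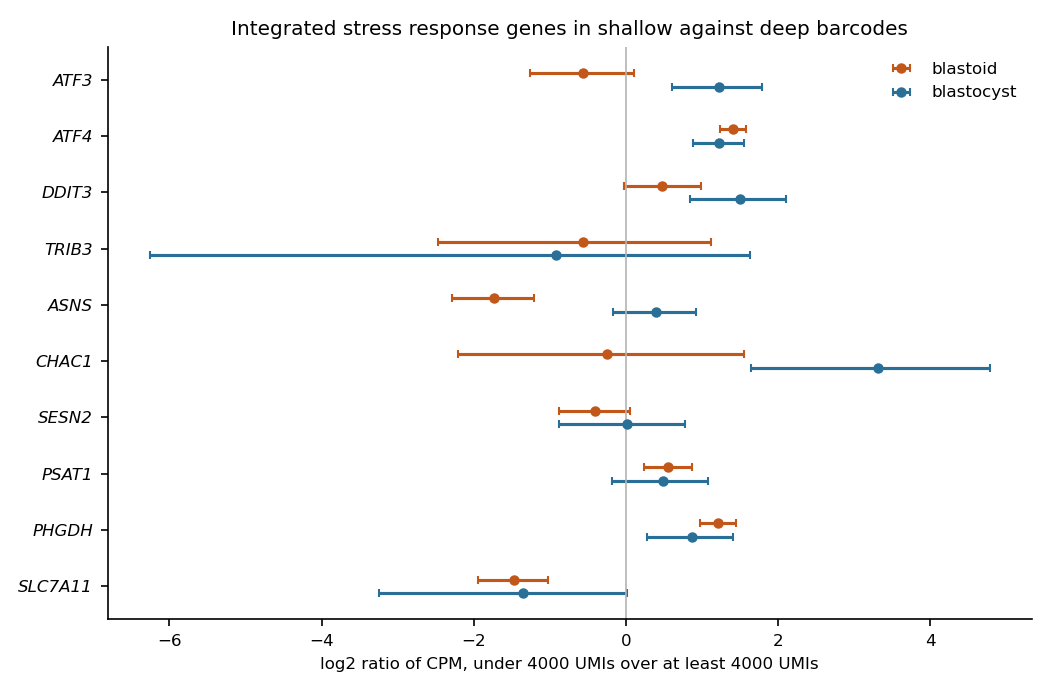
Log2 ratio of CPM in barcodes under 4000 UMIs over barcodes with at least 4000 UMIs (horizontal axis) for the 10 genes in the blastoid (orange) and blastocyst (blue) libraries. Bars are exact conditional 95% intervals and the vertical line marks equal levels. ATF4 and PHGDH lie right of the line in both libraries, and ASNS lies left of it in the blastoids only.

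The rest of the pathway was examined through lists of upstream and downstream genes. Of the 4 eIF2 kinases, EIF2AK2 (PKR, which senses double-stranded RNA) was 5.74-fold higher in the whole blastoid library (32.6 against 5.68 CPM, 4.08 to 8.27) and 5.46-fold higher in trophectoderm-like nuclei (49.6 against 9.09 CPM, 3.57 to 8.63). EIF2AK4 (GCN2, which senses uncharged tRNA) was 2.01-fold lower in the whole library (63.1 against 127 CPM) and within 2-fold in trophectoderm-like nuclei. EIF2AK1 and EIF2AK3 were within 2-fold in both. At 4000 UMIs or more EIF2AK2 was 6.24-fold higher and EIF2AK4 within 2-fold. Among the 12 genes of eIF2, eIF2B and the eIF2-alpha phosphatase, the catalytic subunit PPP1CA was 2.14-fold higher and PPP1R15A (GADD34, the stress-induced subunit) lower at 21 against 57 UMIs in the whole library. With 1 of the 12 higher and 1 lower, these were smaller shares than the 24.2% and 20.7% of all features. At 4000 UMIs or more PPP1CA was within 2-fold and 0 of the 12 were higher, against 21.9%. At that depth 2 of the 12 were lower, against 15.2%, with a list median of -0.40 (bounds -0.75 and -0.12). In trophectoderm-like nuclei both phosphatase targeting subunits were lower: PPP1R15A with 2 against 30 UMIs (ratio 0.0819) and PPP1R15B with 28 against 77 (2.24-fold lower). These 2 of 12 are close to the 16.0% of all features. Against the deep trophectoderm-like cluster alone, 1 of the 12 was 2-fold lower, PPP1R15A with 2 against 12 UMIs, a smaller share than the 14.3% of all features. PPP1R15A, like others with small counts here, was named after its values were seen.

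Genes that ATF4 is known to induce did not share 1 direction. Of 19 aminoacyl-tRNA synthetase and tRNA export genes, GARS1 (2.58-fold), AARS1 (2.16-fold) and IARS1 (2.08-fold) were at least 2-fold lower in the whole blastoid library, a smaller share than the 20.7% of all features. None was higher, against 24.2%, and the list median was -0.48 (bounds -0.63 and -0.33), or -0.23 relative to the median of well-counted features. At 4000 UMIs or more 3 of the 19 were lower, against 15.2% of features, and 0 higher, against 21.9%. The list median was then -0.60 (bounds -0.79 and -0.32), or -0.58 relative to the median of well-counted features. In trophectoderm-like nuclei 0 of the 19 were 2-fold higher, against 17.3%, and 0 lower, against 16.0%. Of 9 amino acid transporters, SLC38A1 (11.6-fold), SLC1A5 (3.75-fold) and SLC7A3 (30 against 3 UMIs) were higher and SLC7A1 (2.13-fold) and SLC1A4 (2.23-fold) lower in the whole library. That made 3 of 9 higher, against 24.2% of features, and 2 of 9 lower, against 20.7%. Of 8 tested at 4000 UMIs or more, SLC38A1 (16.3-fold) was higher, against 21.9% of features, and SLC38A2 (2.12-fold) and SLC1A4 (2.49-fold) lower, against 15.2%. In trophectoderm-like nuclei SLC38A1 (17 against 3 UMIs) and SLC36A4 (18 against 8 UMIs) were at least 2-fold higher of 8 tested, against 17.3% of features, and 0 were lower, against 16.0%. Against the deep cluster alone SLC1A5 joined them at 2.20-fold, which made 3 of 8 higher, against 20.4% of features, and 0 lower, against 14.3%.

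In the list of serine, one-carbon and proline synthesis, the mitochondrial one-carbon enzyme MTHFD1L differed most. It was 6.09-fold lower in the whole blastoid library (69.5 against 424 CPM) and 5.19-fold lower in trophectoderm-like nuclei (98.4 against 511 CPM). MTHFD2L was also lower in both, at 46 against 155 UMIs and 11 against 54 UMIs. SHMT2 was 2.48-fold higher in the whole library but within 2-fold at 4000 UMIs or more and, at 1.83-fold, in trophectoderm-like nuclei. Against the deep trophectoderm-like cluster alone it was 25.2 against 10.3 CPM, more than 2-fold higher. In the whole library 1 of the 15 genes of the list was higher and 2 lower, smaller shares than the 24.2% and 20.7% of all features. Other ATF4 and CHOP targets were found in both directions: of 15 tested in the whole library EIF4EBP1 (2.18-fold) and GDF15 (44 against 4 UMIs) were higher, and JHY (12.5-fold), KLHL24 (3.17-fold) and FGF21 (5 against 28 UMIs) lower. Both counts, 2 and 3 of 15, are no larger shares than the 24.2% and 20.7% of all features. At 4000 UMIs or more 2 of 15 were higher, against 21.9%, and 4 lower, against 15.2%. In trophectoderm-like nuclei 1 of 13 was higher, against 17.3%, and 3 lower, against 16.0%. Against the deep cluster alone 3 of 13 were higher, against 20.4%, and 2 lower, against 14.3%. Of the 382 blastoid EIF4EBP1 UMIs, 255 were in the ribosomal-rich cluster, and EIF4EBP1 was 2.82-fold higher against the deep cluster alone. KLHL24 was 2.13-fold lower in trophectoderm-like nuclei, but its levels in the blastoid and the deep blastocyst cluster were 11.99 and 12.5 CPM.

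**Figure D5:**
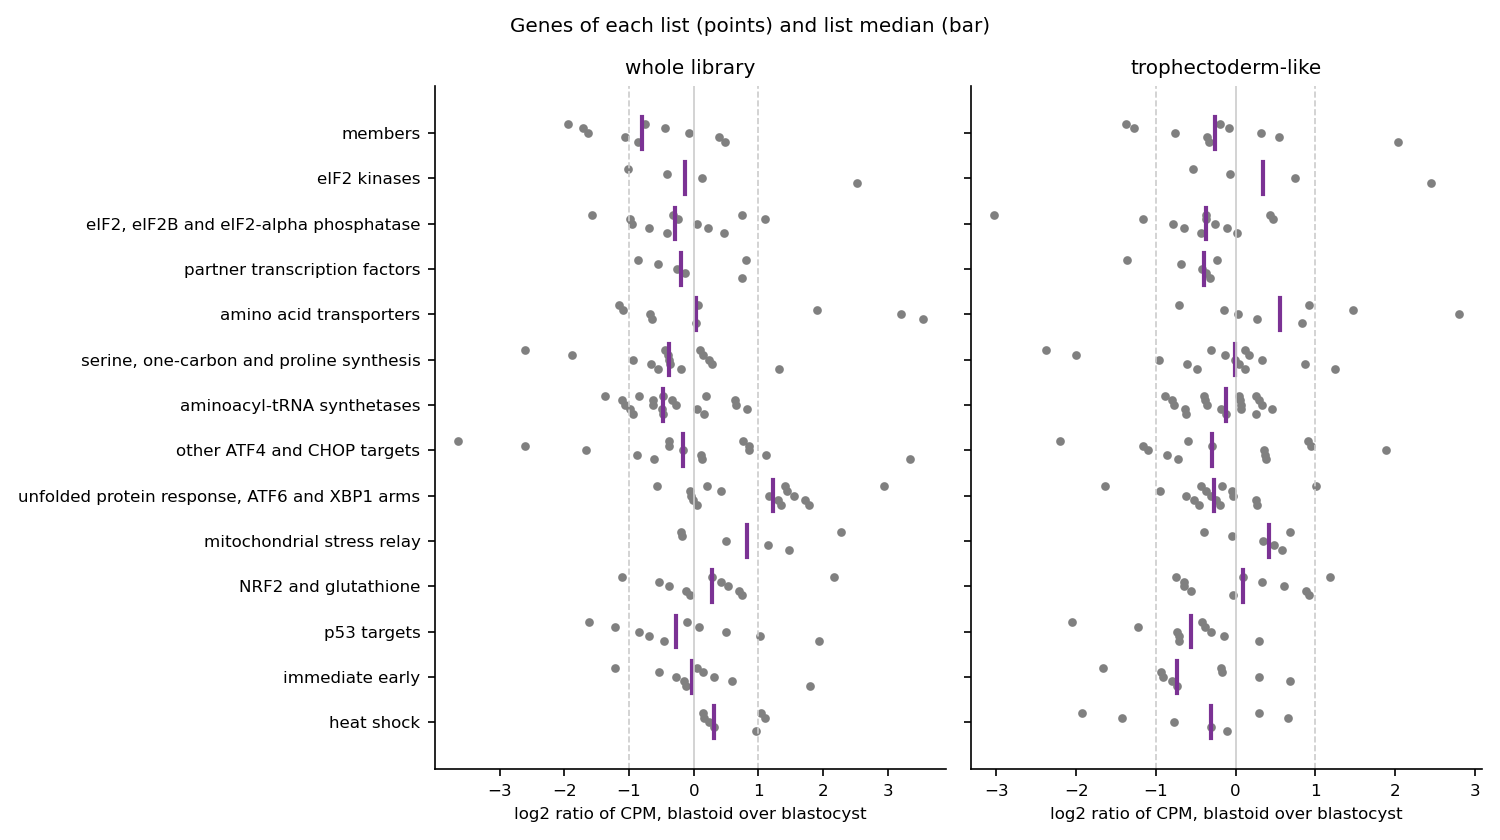
Log2 ratio of CPM, blastoid over blastocyst (horizontal axis), of each gene (grey points) and of the list median (purple bars) for the 10 integrated stress response genes (top row, members) and 13 related lists, in the whole libraries (left) and trophectoderm-like nuclei (right). Points are spread vertically for legibility, counts under 3 were set to 3, and dashed lines mark 2-fold. The list of the ATF6 and XBP1 arms of the unfolded protein response has its median at 1.23 on the left and -0.27 on the right.

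The endoplasmic reticulum branch outside eIF2 gave different results in the whole libraries and in the trophectoderm-like nuclei. In the whole blastoid library 9 of 16 genes of the ATF6 and XBP1 arms were at least 2-fold higher, against 24.2% of features, and 0 lower, against 20.7%, with a list median of 1.23 (bounds 1.08 and 1.37). Among the 9 were the chaperone CALR (1387 against 180 CPM) and the secreted factors MANF (3.44-fold) and CRELD2 (3.28-fold). Among barcodes with at least 4000 UMIs 1 of the 16 was higher, against 21.9%, and the median was 0.16 (bounds -0.01 and 0.38). In trophectoderm-like nuclei CALR was 2.01-fold higher, DNAJB9 lower (12 against 46 UMIs) and the median -0.27 (bounds -0.58 and -0.03). Against the deep cluster alone the median was -0.09 (bounds -0.41 and 0.21). In the ribosomal-rich cluster 11 of the 16 genes were at least 2-fold above the blastoid trophectoderm-like nuclei, against 22.5% of features. CALR was 2609 CPM there and 498 and 482 CPM in the other blastoid clusters. The sensors ATF6 (41.1 against 150 CPM) and ERN1 (16.1 against 73.6 CPM) were at least 2-fold lower in it, 2 of 16 against 38.0%. The part of the depth and ribosomal content of this cluster in that pattern was not tested.

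Across the 7 clusters, ATF3 and SESN2 had the most similar profiles among the 8 genes with at least 100 UMIs (Pearson correlation of log2 CPM 0.954), followed by DDIT3 and SESN2 (0.874), ATF3 and DDIT3 (0.870) and ATF4 and PHGDH (0.845). ATF4 and ASNS ran in opposite directions (-0.58). With 7 points that share 2 libraries and differ in depth, these values are descriptions. Of 10300 genes, the most similar to ATF3 were KLF5 (0.995) and ZNF217 (0.983), to ATF4 LONP1 (0.993) and GET3 (0.991), to ASNS CASK (0.997), and to SLC7A11 TNFSF8 (0.979) and ZNF75A (0.961).

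Detection of 1 gene beside another could be compared in few clusters. After thinning to 2000 UMIs, 51 combinations of a gene pair and a cluster had at least 20 barcodes with each gene. In 37 of them the second gene was found more often in barcodes with the first. This held for 22 of 28 in the hypoblast-like blastocyst cluster and 13 of 21 in the ribosomal-rich blastoid cluster. How often pairs of other genes show it was not tested. In 2 of the 51 the intervals did not overlap. PHGDH was found in 30.3% of blastoid trophectoderm-like nuclei with an ATF4 UMI (15.6 to 48.7) and in 8.55% of those without (4.17 to 15.2). PHGDH was likewise found in 35.3% of hypoblast-like blastocyst nuclei with a DDIT3 UMI (19.7 to 53.5) and in 13.7% of those without (10.2 to 17.8). For ATF4 and PHGDH in the hypoblast-like nuclei the order was not the same, at 13.7% and 16.4%.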

How the data were processed

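The authors deposited 1 matrix of UMI counts for each library. The software was Cell Ranger, as version 7.2.0 per the file headers and 7.1.0 per the submitters' processing notes, which also name Seurat 4.3.0. The genome build, annotation and intron setting are not given in the sources used here, and no coordinates or sequences are printed. The 10 genes and all lists were chosen with earlier results of these data known.

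Barcodes with at least 500 genes and under 10% mitochondrial UMIs were kept. Those with the highest Scrublet scores were removed (scanpy 1.11.5, 0.8% per 1000 barcodes: 30 blastoid, 6 blastocyst). Each library was clustered on 2000 variable genes without the marker and list genes (30 components, 15 neighbours, leidenalg 0.10.2, resolution 0.5). A marker counted at 100 UMIs and 1.5 times the other clusters. A name needed at least 3 markers and 2 times those of any other class, and clusters over 5% ribosomal protein UMIs were called ribosomal-rich.

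CPM carry exact Poisson, ratios exact conditional and shares exact binomial (Clopper-Pearson) 95% intervals (scipy 1.17.1). Genes past 2-fold were counted where both sums together held 10 UMIs or more, and counts under 3 were set to 3 for medians. Only the whole-library ratios and their intervals were tested on simulated Poisson counts. Clustering, naming, detection shares and co-detection were not tested in that way. Named genes were the 10 genes, up to 3 highest and 3 lowest per list and comparison with at least 100 UMIs and 2-fold, and for the 8 well-counted genes the 2 most similar genes over the clusters. Genes with small counts were named after their values were seen, as were 3 of the alternatives tried. List symbols with no single feature were not analysed here. Some results for named genes are not reported here.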

Additional observations from a re-analysis of the deposited data

How the results depend on the processing

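No paired analysis was possible because each group has 1 library, and for the same reason no replicate could be left out. In the whole libraries, ATF3, TRIB3 and ASNS were at least 2-fold lower in the main values and at 4000 UMIs, and the number of genes 2-fold lower ranged from 3 to 4 over 9 alternatives. ATF4 and PHGDH turned from log2 0.39 and 0.49 to -0.30 and -0.11 with barcodes of at least 4000 UMIs. In trophectoderm-like nuclei, 2 genes instead of 1 were at least 2-fold higher with a minimum of 200 genes, with a minimum of 1000 genes, at resolution 0.3, with a gate on GATA2 and GATA3, and without the shallow blastocyst cluster (an alternative chosen after seeing the data). The added gene was CHAC1, at few UMIs. At resolution 1.0, 1 gene instead of 2 was 2-fold lower, since ATF3 stood at -0.77; the cause was not tested. SLC7A11 ranged from 1.71 to 2.29 and ASNS from -1.48 to -1.20 over the 15 alternatives. The list median in trophectoderm-like nuclei changed sign, from -0.26 to 0.14 at a minimum of 200 genes, 0.06 at 1000 genes, 0.06 at resolution 0.3 and 0.06 without the shallow blastocyst cluster. DDIT3 passed 2-fold after thinning to 2000 UMIs (-1.70 against -0.76), at few counts and with overlapping intervals of its thinned detection shares. Of the single-gene values, 9 in the whole library and 10 in trophectoderm-like nuclei moved by more than counting error, and 81 and 140 did not. The shares of nuclei with a UMI were less stable. Of these shares, 14 moved and 6 did not in blastocyst trophectoderm-like nuclei, and 10 moved and 10 did not in the blastoid ones. Low counts limit TRIB3 and CHAC1, and the planned promoter motif search was not run.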

Other observations

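Barcodes removed by the filters held few UMIs of these genes. The 43 removed blastoid barcodes carried 27 ATF4 UMIs, 8 PHGDH UMIs and 5 PSAT1 UMIs, and 0 of ATF3, TRIB3, ASNS, CHAC1, SESN2 and SLC7A11. The 117 removed blastocyst barcodes carried 22 ATF4 UMIs (131 CPM, 82.2 to 199) and 21 ASNS UMIs (125 CPM, 77.5 to 191).

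Neighbouring stress lists had values of their own. In trophectoderm-like nuclei the small heat shock gene HSPB1 was 80.6 CPM in the blastoids and 305 CPM in the blastocysts, 3.79-fold lower. The shallow blastocyst cluster had 869.7 CPM of HSPB1, and against the deep one (148 CPM) HSPB1 was within 2-fold. The growth arrest gene GADD45A was 21.5 against 50.1 CPM, and 48.6 CPM in the deep cluster. In the whole blastoid library the mitochondrial chaperonin gene HSPE1 was 4.85-fold higher and DELE1, which relays mitochondrial stress to the eIF2 kinase EIF2AK1, was 2.21-fold higher. Both were within 2-fold at 4000 UMIs or more and in trophectoderm-like nuclei, but against the deep cluster alone HSPE1 was 2.91-fold higher (142.6 against 49.0 CPM). In the blastocysts, 8 of 16 genes of the ATF6 and XBP1 arms were at least 2-fold lower in hypoblast-like than in trophectoderm-like nuclei, against 14.0% of features. Relative to the deep cluster alone 5 of 16 were lower, also against 14.0% of features. Among the 8 were EDEM1 (18.0 against 68.7 CPM) and ERN1 (21.2 against 60.9 CPM). Of 8 amino acid transporters, 5 were at least 2-fold higher there in both comparisons, against 15.4% and 18.6% of features, among them SLC7A1 (58.1 against 19.9 CPM) and SLC1A4 (58.1 against 23.2 CPM).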
